A study of Mus musculus with 18 samples.

Results

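The transcripts described here are those of 6 signal transducers and activators of transcription (STATs): Stat2, Stat3, Stat4, Stat5a, Stat5b and Stat6. They were taken by symbol, each from the 1 probe set annotated with that symbol alone, out of 19752 genes measured. Levels came from 18 Affymetrix Mouse Gene 1.0 ST arrays of immune cells sorted from male C57BL/6 (B6) mice aged 6 weeks. All mice had received 10000 U of interferon gamma (IFNg) by subcutaneous injection 2 h earlier, and no untreated animals were analysed here. Each of 9 populations had 2 arrays. The 3 myeloid populations were dendritic cells gated on CD11c, MHCII and Flt3 (DC), Ly6G+ granulocytes (GN), and macrophages gated on ICAM2 and the macrophage antigen that Adgre1 encodes (MF). The 6 lymphoid ones were NK1.1+ TCRB- cells (NK), NK1.1+ TCRB+ cells (NKT), CD4+ TCRB+ cells (T4), CD8+ TCRB+ cells (T8), TCRgd+ TCRB- cells (Tgd) and CD4+ TCRB+ CD25+ cells (Treg). MF came from the peritoneal cavity and all others from spleen, so for MF tissue and cell type cannot be told apart. The labels do not say whether the arrays of a population came from separate mice, and p-values therefore measure the spread between arrays, which may be technical. Levels are log2 intensities, given per array or as mean ± SD (n = 2 arrays). They are compared between populations for 1 gene at a time, since probe sets of different genes are not on a common scale.

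STAT proteins wait in the cytoplasm until Janus kinases bound to a cytokine receptor phosphorylate them, after which they pair and enter the nucleus to drive transcription. Each serves its own set of cytokines. Stat2 joins Irf9 in the complex that answers type I interferon, Stat4 answers IL-12, Stat3 answers IL-6, IL-10 and G-CSF, Stat5a and Stat5b answer IL-2, IL-7, IL-15 and GM-CSF, and Stat6 answers IL-4 and IL-13. Phosphorylation was not measured, so the values below concern the amount of each transcript and not the activity of the protein.

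The genes are clustered on the chromosomes. In the RefSeq table of mouse assembly GRCm38.p6, Stat5b, Stat5a and Stat3 follow each other on chromosome 11 with no other protein-coding gene between them, Stat2 and Stat6 lie on chromosome 10 and Stat4 on chromosome 1. Upstream sequence is shown for Stat2 and Stat3, whose levels ran together over the populations, and for Stat4, whose levels ran against them. Each stretch is the 250 bases before a start site in RefSeq (GRCm38.p6), 5′ to 3′ on the strand of the gene. Stat2 is at chr10:128270248-128270497 on the plus strand, Stat3 at chr11:100939541-100939790 on the minus strand, and Stat4 at chr1:52007990-52008239 on the plus strand, before the downstream of its 2 listed starts. Capitals mark a match to the core of the interferon-stimulated response element, searched as GAAANNGAAA on both strands.
Stat2: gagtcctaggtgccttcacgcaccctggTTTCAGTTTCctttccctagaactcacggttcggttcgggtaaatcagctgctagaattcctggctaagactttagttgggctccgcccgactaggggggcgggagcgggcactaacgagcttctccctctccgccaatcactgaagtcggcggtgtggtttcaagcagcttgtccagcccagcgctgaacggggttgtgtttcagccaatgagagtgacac
Stat3: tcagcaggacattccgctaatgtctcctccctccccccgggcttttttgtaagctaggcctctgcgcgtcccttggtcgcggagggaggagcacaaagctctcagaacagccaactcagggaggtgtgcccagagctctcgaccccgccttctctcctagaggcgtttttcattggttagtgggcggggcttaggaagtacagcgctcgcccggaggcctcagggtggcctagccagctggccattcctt
Stat4: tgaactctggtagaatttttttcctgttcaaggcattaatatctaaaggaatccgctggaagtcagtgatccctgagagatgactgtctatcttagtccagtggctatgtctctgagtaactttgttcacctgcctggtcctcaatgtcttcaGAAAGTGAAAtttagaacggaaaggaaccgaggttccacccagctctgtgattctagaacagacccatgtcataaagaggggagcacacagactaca
In Stat2 the match began 222 bases before the start and read on the opposite strand, and in Stat4 it began 97 bases before the start on the same strand. These were 2 of the 9 windows listed for the 6 genes, while 2.98% of 32851 windows of this length held the motif. The other Stat4 window, before the upstream start, held no match and is not shown. The gamma-activated site, to which STAT dimers bind, was searched as TTCNNNGAA, and 0 of the 9 windows held it, against 7.02% of all windows. A match is a description of letters and was not linked to binding.

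The arrays had medians between 138.5 and 151.0 intensity units, and the 2 arrays of a population correlated at r between 0.9901 and 0.996 over all probe sets. The marker lists of most gates were brightest in their own population, with limits in DC, T4, T8 and Tgd. Of the granulocyte markers, 12 of 12 passed as higher in DC when set against the other 8 populations together, by the thresholds given below. Their summed intensity was 8691 on DC replicate 1 and 30710 on DC replicate 2, beside 91105 and 103151 in GN and 744 to 2634 in the other 7 populations. Red pulp macrophage markers, 6 of 7 of which passed as higher in DC, summed to 4161 and 8461 on DC replicates 1 and 2, beside 22855 and 24176 in MF, 5723 and 6068 in GN and 655 to 1466 in the others. The 4 measured monocyte markers, 3 of which passed as higher in DC, summed to 6026 and 7657 in DC and 1431 to 3954 elsewhere. The 4 Treg markers summed to 4342 and 4577 in T4, where the gate did not leave out CD25+ cells, against 15562 and 17295 in Treg, and to 3555 and 4065 in NKT and 3588 and 3931 in Tgd. For gamma delta T cells 2 of 6 markers were measured, and they summed to 441 and 443 in Tgd against 253 to 341 elsewhere. The 6 NK markers summed to 32823 and 32138 in NK and 6502 and 6289 in NKT. They came to 3129 and 2984 in Tgd and 3073 and 2606 in T8, beside 275 to 1087 in the others. B cell markers summed to 2344 and 2477 in Tgd and to 2248 and 2322 in DC, beside 518 to 1431 in the others. The part of such cells in the STAT values was not tested. Values without DC replicate 2 stand beside the DC results. Leaving it out lowers the granulocyte signal in DC but does not remove it, since DC replicate 1 stood at 8691. The monocyte and B cell signal was on both DC arrays. In T4, T8 and Tgd both arrays likewise carried the marker signal, so leaving out 1 of them does not remove it. In sorted populations, fewer cells that carry a transcript and less transcript per cell cannot be told apart.

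Of the 6 STAT genes, 4 differed over the 9 populations, led by Stat2 and Stat4. Here passing means a range of population means of at least 2-fold (1 on the log2 scale) and, in limma's moderated F test, an adjusted p under 0.05 over all genes. By this rule 39.0% of all genes passed. All 6 STATs had mean levels above those of at least 88.6% of genes, so brighter genes are the closer comparison. With dim genes left out (highest population mean under the median of all values), 7364 of 12220 genes passed, and the same number of STATs. Stat2 ranged over 2.83, or 7.09-fold (adjusted p = 1.32e-11), and Stat4 over 2.25, or 4.75-fold (adjusted p = 8.86e-13). Stat5b ranged over 1.91 (adjusted p = 1.11e-09) and Stat3 over 1.25 (adjusted p = 3.31e-08). Stat6 and Stat5a had ranges of 0.87 and 0.80, below 2-fold, with adjusted p = 4.64e-06 and 9.06e-05. The median range was 1.58 over the 6 genes and 0.71 over all genes, dim ones included. When quantile normalization was added across the arrays, the range of Stat3 came to 0.90 and missed the 2-fold threshold.

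**Figure D1:**
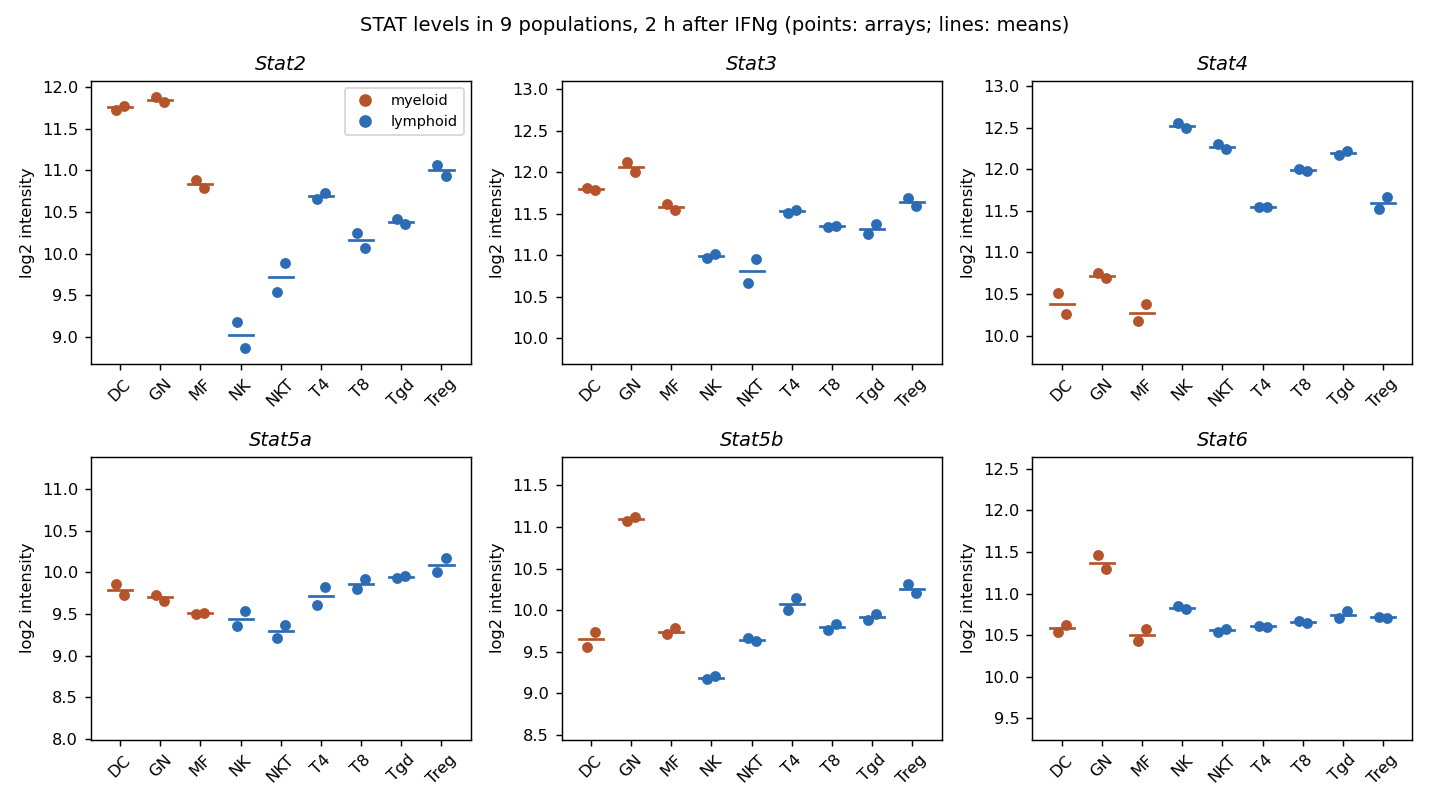
Levels of the 6 STAT genes as log2 intensity (vertical axis, each panel spanning the same number of log2 units) in the 9 populations. Points are arrays, lines are population means, and myeloid populations stand left of lymphoid ones. Stat2 is highest in GN and DC and lowest in NK, Stat4 is higher in every lymphoid population than in every myeloid one, and Stat5b and Stat6 stand apart in GN.

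Stat2, the partner of Irf9 in type I interferon signalling, was highest in DC and GN and lowest in NK cells. Its level was 11.73 and 11.78 in DC, 11.88 and 11.82 in GN, and 10.89 and 10.79 in MF. The myeloid arrays of DC and GN thus lay above all others. Of the lymphoid populations, NK cells had 9.18 and 8.87, NKT cells 9.54 and 9.89, and Tgd cells 10.42 and 10.35. T4 cells had 10.66 and 10.73, T8 cells 10.25 and 10.07, and Treg cells 11.06 and 10.93. Treg was therefore the lymphoid population with the most Stat2, above MF. From the highest mean to the lowest the order was GN, DC, Treg, MF, T4, Tgd, T8, NKT and NK, and the arrays of neighbours did not overlap at any of the 8 steps. Over the steps of all genes, 27.9% were apart in this way. The step from GN to DC was small, at 0.09, and with quantile normalization DC stood above GN (GN minus DC of -0.13).

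Stat4, which carries the IL-12 signal towards IFNg production in NK and T cells, was higher in lymphoid than in myeloid populations. It was highest in NK1.1+ cells. NK arrays measured 12.55 and 12.50, NKT arrays 12.30 and 12.24, and Tgd arrays 12.17 and 12.22. T8 cells had 12.00 and 11.98, T4 cells 11.55 on both arrays, and Treg cells 11.52 and 11.66. The innate-like populations and T8 therefore stood above both CD4+ populations, and T4 and Treg overlapped. In the myeloid populations the level was 10.51 and 10.26 in DC, 10.75 and 10.69 in GN, and 10.17 and 10.38 in MF. No myeloid array reached the lowest lymphoid one. Neighbours were apart at 6 of 8 steps, and overlapped between Treg and T4 and between DC and MF. The widest step, 0.83, separated T4 from GN.

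Stat3, the mediator of IL-6 family cytokines, IL-10 and G-CSF, varied less, with its high end in GN and its low end in NK1.1+ cells. It measured 11.81 and 11.79 in DC, 12.12 and 12.00 in GN, and 11.62 and 11.54 in MF. NK cells had 10.97 and 11.01, NKT cells 10.67 and 10.95, and Tgd cells 11.25 and 11.37. These were the 3 lowest means. T4 cells had 11.51 and 11.55, T8 cells 11.34 and 11.35, and Treg cells 11.69 and 11.59. Neighbours were apart at 5 of 8 steps, and overlapped from Treg to MF, from MF to T4 and from T8 to Tgd. The step from GN to DC, 0.26, shrank to 0.01 with quantile normalization.

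Stat5b and Stat5a are paralogs that lie next to each other and answer many of the same cytokines, and their levels parted mainly in GN. Over the population means r between them was 0.39 for all 9, 0.71 without GN and 0.76 for the 6 lymphoid ones, as a description. Stat5b stood apart in GN, with 11.07 and 11.12, against 9.56 and 9.74 in DC and 9.71 and 9.78 in MF. In the CD4+ populations it averaged 10.07 ± 0.11 in T4 and was 10.31 and 10.21 in Treg, and T8 cells had 9.76 and 9.83. NK cells were lowest at 9.17 and 9.21, with NKT at 9.66 and 9.63 and Tgd at 9.88 and 9.95. Neighbours were apart at 5 of 8 steps, the widest being 0.84 from GN to Treg, and T8, MF, DC and NKT overlapped in turn.

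Stat5a varied little, and no comparison of it passed. It was 9.86 and 9.73 in DC, 9.73 and 9.66 in GN, and 9.50 and 9.51 in MF. NK cells had 9.35 and 9.53, NKT cells 9.21 and 9.37, and Tgd cells 9.93 and 9.95. T4 cells had 9.61 and 9.82, T8 cells 9.80 and 9.92, and Treg cells 10.01 and 10.17. Treg had the highest mean and NKT the lowest, and 3 of 8 steps were apart. GN, the population with the most Stat5b, came at place 6 of 9 for Stat5a.

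Taken within each array, log2 Stat5a minus log2 Stat5b was -1.34 and -1.46 in GN. It lay between -0.45 and 0.32 on all other arrays, so that GN stood alone. The difference averaged -0.50 ± 0.81 over the 3 myeloid and -0.09 ± 0.25 over the 6 lymphoid population means (SD over populations). An exact two-sided permutation test over these 9 means gave p = 0.452, where the smallest p the 84 arrangements allow is 0.0238. The test asks about the lineages as a whole, and the GN value itself has no test. The paralogs share much coding sequence, and how far probes of one bind transcripts of the other was not tested.

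**Figure D2:**
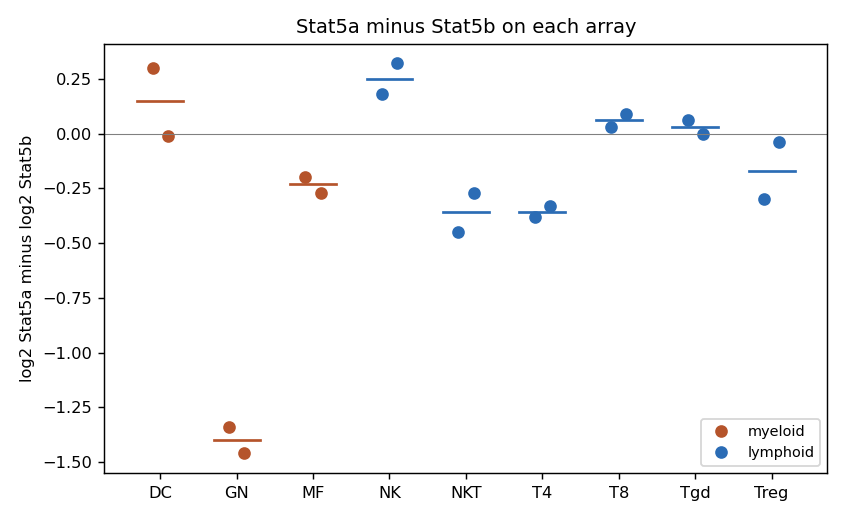
Within-array difference of log2 Stat5a and log2 Stat5b intensity (vertical axis) in the 9 populations. Points are arrays and lines are means, and the 2 GN arrays lie at -1.34 and -1.46, below all other arrays.

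Stat6, which carries IL-4 and IL-13 signals, was higher in GN and close to level elsewhere. GN measured 11.46 and 11.29, DC 10.54 and 10.62, and MF 10.43 and 10.57. NK cells had 10.85 and 10.81, NKT cells 10.54 and 10.57, and Tgd cells 10.70 and 10.79. T4 cells had 10.61 and 10.60, T8 cells 10.67 and 10.65, and Treg cells 10.72 and 10.71. The step from GN to NK was 0.54, and the remaining 8 means spanned 10.50 to 10.83. Of the 8 steps 4 were apart. Over the 6 genes the arrays of neighbours were apart at 31 of 48 steps, to be read against the 27.9% of steps over all genes. That share includes dim genes, and none was taken without them.

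Myeloid and lymphoid populations differed in opposite directions for Stat2 and Stat4. Stat2 averaged 11.48 in myeloid and 10.16 in lymphoid populations, higher by 1.32 ± 0.06 (SE, adjusted p = 3.05e-12). Stat4 averaged 10.46 in myeloid and 12.02 in lymphoid populations, a difference of -1.56 ± 0.05 (adjusted p = 6.94e-15). These 2 of 6 genes passed, where 10.8% of all genes did. With dim genes left out, 2116 of 12220 genes passed, and the same 2 STATs. Stat3 and Stat5b had differences of 0.54 ± 0.05 and 0.35 ± 0.05 (adjusted p = 1.37e-08 and 8.71e-06), under 2-fold. Stat6 was at 0.13 ± 0.05 (adjusted p = 0.0193), which came to -0.03 with quantile normalization, and Stat5a at -0.06 ± 0.06 (adjusted p = 0.437).

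The opposed levels of Stat2 and Stat4 also held among lymphoid populations. Over the 9 population means Pearson's r was -0.84 between Stat2 and Stat4 and 0.94 between Stat2 and Stat3. Over the 6 lymphoid means the values were -0.91 and 0.87. Stat5b also followed Stat2 among the lymphoid means, with r = 1.0 to 2 decimals over those 6 and 0.70 over all 9. Stat6 had r = 0.31 with Stat2 over the 9 means and -0.50 without GN. These coefficients describe 9 or 6 points that share arrays and normalization, and were not tested.

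**Figure D3:**
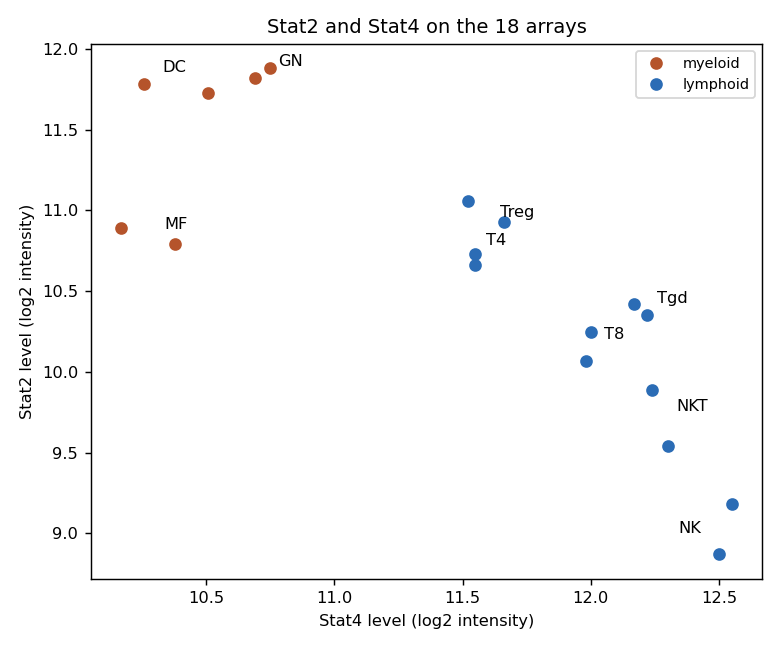
Stat2 level (vertical axis) against Stat4 level (horizontal axis), both in log2 intensity, on the 18 arrays. Points are arrays, labelled by population. DC and GN lie at high Stat2 and low Stat4, NK at low Stat2 and high Stat4, and T4 and Treg between them.

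Among the 6 lymphoid populations Stat2 and Stat5b differed, 2 of 6 genes, where 9.95% of all genes passed. With dim genes left out, 1903 of 12220 genes passed, and the same 2 STATs. Stat2 ranged over 1.97, from 11.00 ± 0.09 in Treg to 9.02 ± 0.22 in NK (adjusted p = 9.47e-09). Stat5b ranged over 1.07, between the same populations, at 10.26 ± 0.07 and 9.19 ± 0.03 (adjusted p = 2.68e-06). Stat4, with a range of 0.97, lay just under the 2-fold threshold (adjusted p = 8.74e-07), and reached 1.00 without NK replicate 3 and 1.01 without Treg replicate 3, which passed. Stat3 and Stat5a had ranges of 0.83 and 0.80 (adjusted p = 8.90e-06 and 0.000117). Stat6 spanned 0.27 (adjusted p = 0.206).

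Each population was also set against the mean of the other 8, and 7 of the 54 comparisons passed. These contrasts share arrays and are not compared with one another. In DC, Stat2 was higher, with a mean of 11.76 against 10.46 (difference 1.30 ± 0.09, adjusted p = 3.15e-09), and Stat4 lower, with 10.38 against 11.64 (-1.25 ± 0.07, adjusted p = 1.28e-10). That made 2 of 6, with 7.72% of all genes passing. Without DC replicate 2, the array with more granulocyte marker signal, the differences were 1.28 for Stat2 and -1.13 for Stat4, and both passed.

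In GN, Stat2 and Stat5b were higher, 2 of 6 genes where 18.8% of all genes passed. Stat2 averaged 11.85 against 10.45 (1.40 ± 0.09, adjusted p = 4.14e-10) and Stat5b 11.10 against 9.78 (1.31 ± 0.08, adjusted p = 5.51e-11). Stat6 and Stat3 stood at 0.72 ± 0.07 and 0.68 ± 0.07 (adjusted p = 4.58e-08 and 1.50e-07), under 2-fold. Stat4 was at -0.88 ± 0.07 (adjusted p = 6.40e-09), and passed at -1.10 with quantile normalization. That normalization moved the GN differences of Stat2, Stat5b, Stat6 and Stat3 to 1.11, 1.08, 0.46 and 0.35.

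In MF, Stat4 was lower, with 10.27 against 11.65 (-1.38 ± 0.07, adjusted p = 2.18e-11), 1 of 6 genes against 11.7% of all genes. In NK cells Stat2 was lower, with 9.02 against 10.80 (-1.78 ± 0.09, adjusted p = 9.24e-11), and Stat4 higher, with 12.52 against 11.37 (1.15 ± 0.07, adjusted p = 9.34e-10). These were 2 of 6, with 5.07% of all genes passing. Stat5b in NK stood at -0.84 ± 0.08 (adjusted p = 1.13e-07) and Stat3 at -0.52 ± 0.07 (adjusted p = 1.53e-05), both under 2-fold.

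In NKT cells Stat2 and Stat3 lay below the other populations and Stat4 above them, but 0 of 6 genes passed, with 3.91% of all genes passing. Stat2 lay at -0.996 ± 0.09 (adjusted p = 2.77e-07), just short of 2-fold, and passed in 9 of the 24 alternative settings, the lowest value being -1.17 without NKT replicate 2. Stat4 was at 0.87 ± 0.07 and Stat3 at -0.72 ± 0.07 (adjusted p = 5.44e-08 and 4.28e-07). All 6 genes had an adjusted p under 0.05 in NKT.

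In the remaining populations 0 of 6 genes passed, with 3.70% of all genes passing in T4, 4.43% in T8, 2.53% in Tgd and 3.73% in Treg. The unadjusted p lay under 0.05 for 1 gene in T4, 2 in T8, 4 in Tgd and 4 in Treg. Tgd and T8 had Stat4 at 0.78 ± 0.07 and 0.55 ± 0.07 (adjusted p = 3.82e-07 and 1.10e-05). In Treg, Stat2, Stat5a and Stat5b stood at 0.44 ± 0.09, 0.44 ± 0.08 and 0.37 ± 0.08 (adjusted p = 0.00182, 0.000847 and 0.00136). In T4 the differences lay between -0.14 and 0.16, with no adjusted p under 0.05.

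**Figure D4:**
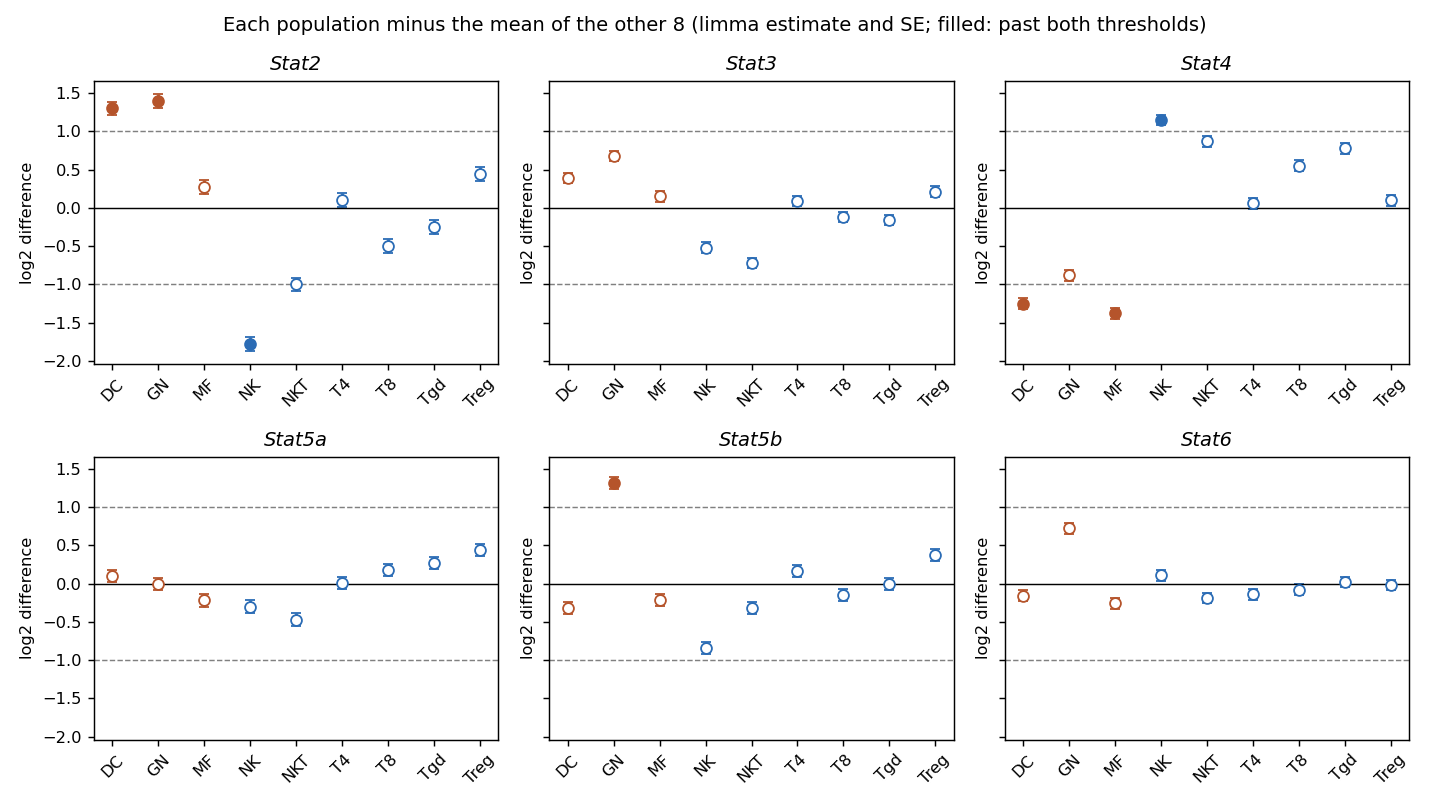
Log2 difference (vertical axis) between each population and the mean of the other 8 for the 6 STAT genes. Points are limma estimates, bars are SE, filled points passed both thresholds and dashed lines mark 2-fold. Stat2 and Stat4 pass in DC and NK in opposite directions, and Stat5b passes in GN.

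Closely related populations were set side by side in 8 further contrasts, in which 4 of 48 comparisons passed. In GN against DC, Stat5b was higher, with 11.10 against 9.65 (1.45 ± 0.10, adjusted p = 1.87e-09), 1 of 6 genes against 16.9% of all genes. Without DC replicate 2 it was 1.54. In GN against MF, Stat5b was higher by 1.36 ± 0.10 (adjusted p = 2.84e-09) and Stat2 by 1.01 ± 0.12 (adjusted p = 1.89e-06), 2 of 6 genes against 20.7%. The Stat2 call rested on the threshold, since the difference was 0.97 without GN replicate 1, 0.96 without MF replicate 3 and 0.81 with quantile normalization. In MF against DC, 0 of 6 genes passed, with 10.9% of all genes passing, and Stat2 stood at -0.92 ± 0.12 (adjusted p = 1.18e-05), or -0.89 without DC replicate 2.

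Among lymphocytes, Stat2 was lower in NK than in T8 cells, with 9.02 against 10.16 (-1.14 ± 0.12, adjusted p = 1.81e-06), 1 of 6 genes against 5.39% of all genes. Without NK replicate 3 the difference was -0.98, under 2-fold. NKT against NK gave 0 of 6 genes, with 3.68% of all genes passing, and Stat2 and Stat5b stood at 0.69 ± 0.12 and 0.46 ± 0.10 (adjusted p = 0.00068 and 0.00372). T8 against T4 gave 0 of 6, with 0.962% of all genes passing. Here Stat2 was at -0.53 ± 0.12 and Stat4 at 0.44 ± 0.10 (adjusted p = 0.0213 and 0.0114). Tgd against the mean of T4 and T8 gave 0 of 6, with 1.47% of all genes passing and Stat4 at 0.42 ± 0.08 (adjusted p = 0.00242). Treg against T4 gave 0 of 6, with 0.876% of all genes passing. Its largest difference was that of Stat5a, 0.38 ± 0.11 (adjusted p = 0.0902), and T4 here held CD25+ cells as well. The unadjusted p was under 0.05 for 3 genes in MF against DC, 4 in NKT against NK, 3 in T8 against T4, 2 in Treg against T4 and 1 in Tgd against T4 and T8.

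Many receptors, kinases, inhibitors and targets around the STATs differed between populations. Counting each gene once, 61 of 74 measured members of 8 lists passed the test over the 9 populations, where 39.0% of all genes did. With dim genes left out, 7364 of 12220 genes passed, and 60 of the list genes. How many of the 74 list genes remained in that setting was not counted, so the 60 gives no share. The list counts below keep dim members, and are to be read against both shares over genes. The median range was 2.76 against 0.71 for all genes. The lists were chosen with earlier results known and hold genes that mark the sorted cells, such as Il2ra. On the type I interferon side, 4 of 5 genes passed. Irf9, the partner of Stat2, was highest in GN at 11.52 ± 0.09 and lowest in NK at 10.10 ± 0.03 (adjusted p = 1.80e-08). Tyk2 and Jak1, the kinases of this receptor, had their highest means in NK, at 10.91 ± 0.11 and 12.67 ± 0.07. Their lowest were 8.41 ± 0.25 in GN for Tyk2 and 11.08 ± 0.02 in MF for Jak1. Over the 9 means r with Stat2 was 0.78 for Irf9, -0.75 for Tyk2 and -0.65 for Jak1, so that Stat2 ran with Irf9 and against both kinases. No coefficient was taken between Irf9 and the kinases. MF, lowest in Jak1, was also low in Irf9, with a mean of 10.55. The receptor chain Ifnar2 ranged over 1.15, and Ifnar1 over 0.96, below 2-fold.

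All 5 genes of the IL-12 and IL-23 input passed. Il12rb2, the signalling chain of the IL-12 receptor that docks Stat4, was brightest in NK at 12.20 ± 0.07 and dimmest in Treg at 6.81 ± 0.17 (adjusted p = 9.54e-14). DC, low in Stat4, had a mean of 10.75 for Il12rb2, while T8 and T4, with more Stat4, had 8.01 and 7.87. Il12rb1, the chain shared with the IL-23 receptor, ran closer to Stat4, with r = 0.89 against 0.44 for Il12rb2. It was highest in NKT at 10.23 ± 0.20 and lowest in MF at 7.63 ± 0.12. Il23r was highest in Tgd, at 9.62 ± 0.02, and lay between 4.99 and 6.18 in the others.

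Of the Stat3 input 8 of 10 genes passed. Csf3r, the G-CSF receptor of granulocytes, reached 13.49 ± 0.06 in GN and 6.35 ± 0.08 in NKT. Lifr was brightest in MF at 10.39 ± 0.08 and dimmest in T4 at 5.52 ± 0.12. Il6st, the gp130 chain shared by the IL-6 family, had its highest mean in Treg at 11.44 ± 0.02 and its lowest in GN at 7.05 ± 0.02. GN, the population with the most Stat3 transcript, thus had the least Il6st and the most Csf3r. Over the 10 genes the coefficient with Stat3 lay between -0.71 for Il27ra and 0.84 for Il6ra, with 0.75 for Csf3r and 0.07 for Il6st.

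Of the Stat5 input 8 of 11 measured genes passed. Il7r was highest in NKT at 12.78 ± 0.09 and lowest in MF at 5.61 ± 0.41. Il2rb, shared by the IL-2 and IL-15 receptors, was highest in NK at 12.96 ± 0.04 and lowest in MF at 5.83 ± 0.43, and Il2ra (CD25), on which Treg were sorted, ranged over 6.89. The GM-CSF receptor chains Csf2ra and Csf2rb were highest in GN, as Stat5b was, at 11.95 ± 0.21 and 12.57 ± 0.02. NK cells had the highest Il2rb mean and the lowest Stat5b mean. Over the 11 genes the coefficient with Stat5b lay between -0.45 for Il2rb and 0.73 for Epor, which did not pass, with 0.60 for Crlf2, 0.48 for Il15ra, 0.36 for both Csf2ra and Csf2rb, and -0.31 for Il7r. With Stat5a it lay between -0.32 and 0.32.

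All 3 measured genes of the IL-4 and IL-13 input passed, and both receptor chains were highest in GN, as Stat6 was. Il4ra stood at 11.99 ± 0.07 in GN and 9.10 ± 0.01 in NK (adjusted p = 3.21e-12), and Il13ra1 at 11.80 ± 0.20 in GN and 5.25 ± 0.13 in T8. NK cells, next below GN in Stat6 mean, had the lowest Il4ra mean. Over the 9 population means r with Stat6 was 0.40 for Il4ra, 0.41 for Il13ra1 and 0.30 for Jak1. Of the Janus kinases all 3 measured passed, and Jak2 ranged over 2.29, from DC at 11.85 ± 0.11 to MF at 9.56 ± 0.05.

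**Figure D5:**
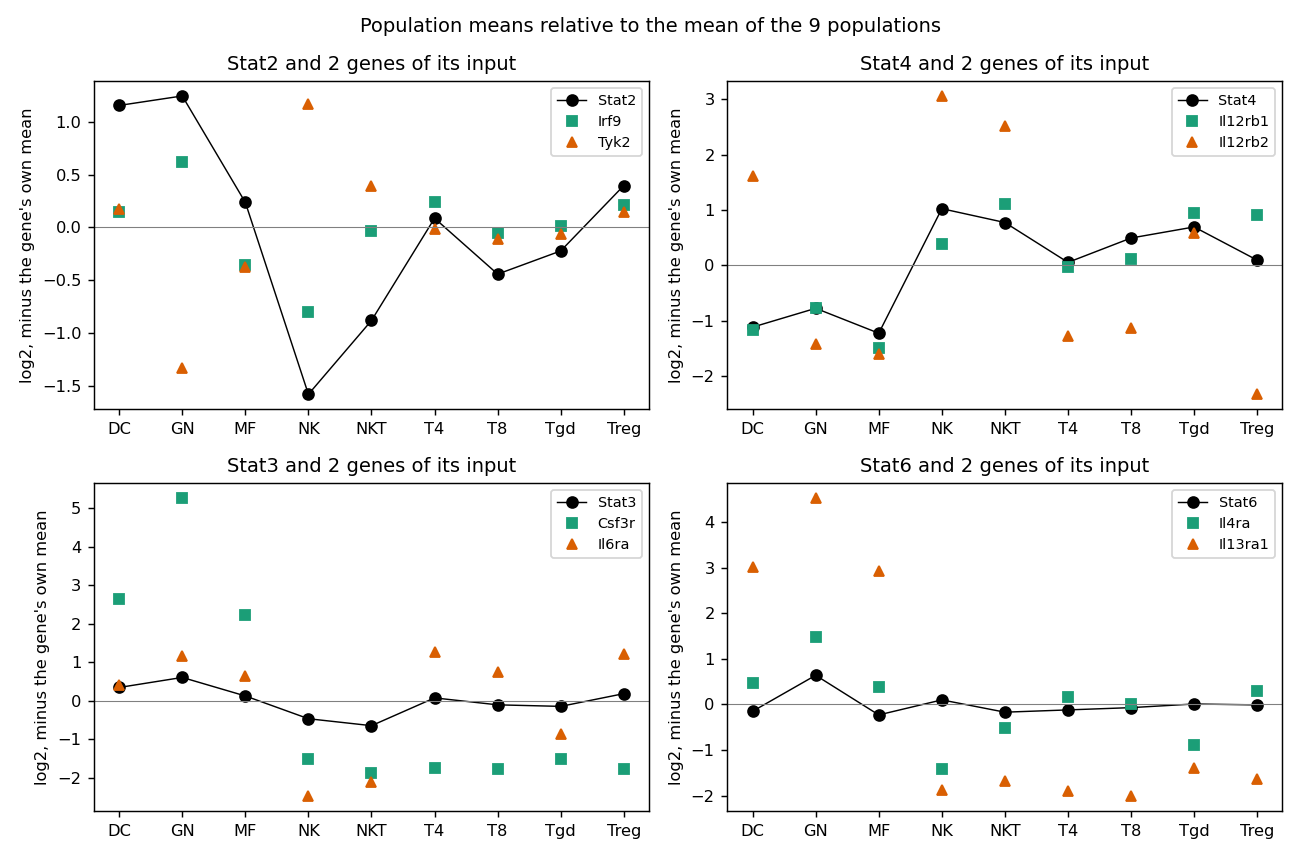
Population means of 4 STAT genes (black) and 2 genes of the input to each, as log2 intensity minus the gene's own mean over the 9 populations (vertical axis). Il12rb1 is closer to Stat4 than Il12rb2 is, Tyk2 runs against Stat2, and Csf3r and both IL-4 and IL-13 receptor chains are highest in GN.

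Among inhibitors 12 of 18 passed, beside 39.0% of all genes. That count is close to the share with dim genes left out, 7364 of 12220. Socs2, Socs3 and Usp18 had the widest ranges. Socs3, which restrains Stat3 signalling, ranged from 12.17 ± 0.10 in GN to 8.36 ± 0.12 in NKT, the populations with the highest and lowest Stat3 means. Usp18, which restrains the type I interferon receptor, averaged 11.81 in both DC and GN and was lowest in NK at 8.83 ± 0.09. Socs2, an inhibitor of cytokine signals that Stat5 induces, was highest in NKT at 10.35 ± 0.08, with Treg close to it at 10.32. It was lowest in T8 at 5.99 ± 0.10. The 6 that did not pass were Socs4, Socs7, Pias1, Pias4, Ptpn2 and Ptpn11.

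Of the known targets 28 of 29 measured passed, and their highest means fell in different populations. The widest ranges were those of Il2ra, Retnla and Fgl2. Retnla, a Stat6 target of macrophages, was highest in MF at 11.12 ± 0.09, where Stat6 was lowest, and lowest in Tgd at 4.23 ± 0.09. Fgl2, a secreted fibrinogen-like protein, was highest in GN at 12.31 and lowest in T8 at 5.92 ± 0.26. Il2ra, which encodes the CD25 of the Treg gate, reached 12.66 ± 0.18 in Treg. Fcer2a did not pass, with a range of 0.79.

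The genes whose population means most resembled each STAT were found among the 7691 other genes past the test over the 9 populations. For Stat2 they were Cd274 (PD-L1, a ligand that restrains T cells), Gdap10 and Parp14, with r = 0.9735, 0.9622 and 0.9603. For Stat3 they were Irf1, a transcription factor, Ifngr2, a chain of the IFNg receptor, and Ampd3, an AMP deaminase, with r = 0.9769, 0.9499 and 0.9482. All 6 peaked in GN, and 5 were at their minimum in NK, with Ampd3 at its minimum in NKT. For Stat4 they were Sh2b1, an adaptor protein, Mast3, a kinase, and Sla2, an adaptor of lymphocytes, with r = 0.9866, 0.9824 and 0.9794, all lowest in MF. For Stat5b they were Asxl1, a chromatin regulator, Plgrkt, a plasminogen receptor, and Adamtsl4, with r = 0.981, 0.9535 and 0.9534. Stat6 was nearest to Plscr2, Med12l and Prickle3, with r = 0.9712, 0.9676 and 0.9656, all highest in GN. Stat5a had looser neighbours, Mir16-2, a microRNA gene, Rab3ip and Nlrc5, the transactivator of MHC class I genes, with r = 0.9138, 0.8589 and 0.8459. With 9 points and so many genes, high coefficients are to be had for most patterns, and they say nothing of shared control.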

How the data were processed

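Deposited values were probe set intensity values on a linear scale, made with Affymetrix Power Tools and RMA per the submitters' processing notes, whose versions and joint or separate normalization are not given in the sources used here. RMA compresses differences of dim genes. The table held 24922 probe sets without missing values, and log2 was taken first. Names came from the platform annotation held by GEO, and Entrez numbers gave current symbols (21347 of 21425 with 1 symbol matched). Probe sets with several symbols (1399) or no listed gene (2098) were left out. Of a gene's probe sets the one with the highest mean was kept, which gave 19752 genes.

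limma 3.58.1 in R 4.3.3 was fitted to the 18 arrays with a mean for each population and no covariates (eBayes with trend, 9 residual and 7.69 prior degrees of freedom), with two-sided contrasts and Benjamini-Hochberg adjustment over all genes. Precision is limited by how few arrays there are. The alternatives were eBayes without trend, dim genes left out, quantile normalization, log2(intensity + 32), the mean of a gene's probe sets, each array left out, and a replicate block. Genes named are the 6 STATs, the 3 widest-ranging members that passed in each list (others named as examples were chosen after their values were seen) and the 3 genes most like each STAT. Members and lists were chosen with earlier results of these data known.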

Additional observations from a re-analysis of the deposited data

How the results depend on the processing

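Of the 120 results (6 genes in 20 comparisons), 114 kept their side of the thresholds in all 24 alternative settings. Among the 19 that passed, 3 were lost in at least 1 setting (Stat3 over the 9 populations, Stat2 in GN minus MF, at 1.00 with log2(intensity + 32), and Stat2 in NK minus T8), and 3 others were gained (Stat4 over the lymphoid populations and in GN, and Stat2 in NKT), with the values given above. In none did a called direction turn. Leaving out 1 array gave 4 STAT genes in every case over the 9 populations, 2 to 3 over the lymphoid ones, 2 for myeloid minus lymphoid, 7 to 8 of 54 against the other 8 populations, 3 to 4 of 48 between related populations, 60 to 62 list genes, 31 to 36 neighbour steps apart, and -0.46 to -0.36 for Stat5a minus Stat5b. The count of steps apart is no check here, since a population left with 1 array spans no range and overlaps less easily. Arrays were not treated as paired by replicate number, since of the 18 pairs of populations that share both numbers 8, not all, had correlated deviations over 0.1 (range -0.16 to 0.47). In 8 of 9 populations the deviation of the array numbered 2 correlated positively, on average, with the same deviation in the other populations. Over all 36 pairs of populations the median r was 0.06. This is a weak hint of pairing from the data and not from the design. With the replicate block 4 STAT genes passed over the 9 populations and 8 of 54 against the other 8, Stat2 in NKT being added. The GN values that moved with quantile normalization are given beside those results. The 2 arrays per population limit what could be detected, and differences under 2-fold were not called.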
